A study of Mus musculus with 6 samples.

Results

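The 10 genes described here encode the main apolipoproteins that the liver secretes: Apoa1, Apoa2, Apoa4, Apoa5, Apob, Apoc1, Apoc2, Apoc3, Apoe and Apoh. Their members on the array are all probe sets whose platform annotation gives exactly 1 symbol, and that symbol is one of the 10. This took 16 of 45101 probe sets, and none of the 16 was dim enough to be dropped. On the array 18193 genes have such a probe set. Liver RNA of 3 mice lacking S1P lyase (KO) and 3 wild-type mice (WT) was hybridised to Affymetrix mouse arrays, 1 per animal. S1P lyase breaks down the signalling lipid sphingosine 1-phosphate. Both genotypes shared a mixed C57BL6 and 129sv background and received no treatment. The labels give neither the age, sex or litter of the animals nor the tissues in which the enzyme is lost. With 3 arrays per genotype the precision of every value is limited.

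Apolipoproteins coat the lipid particles of the blood and help decide where these particles go. Apolipoprotein B is the scaffold of the very-low-density lipoprotein that hepatocytes secrete, and apolipoproteins A-I and A-II carry high-density lipoprotein. The small C apolipoproteins and apolipoprotein A-V tune lipoprotein lipase, the enzyme that unloads triglyceride in the periphery. Apolipoprotein E is the ligand by which liver receptors take up remnant particles. Most of the genes lie in clusters, Apoa1, Apoc3, Apoa4 and Apoa5 on chromosome 9 and Apoc2, Apoc4, Apoc1 and Apoe on chromosome 7, while Apoa2, Apob and Apoh stand alone on chromosomes 1, 12 and 11.

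Sgpl1, the gene of S1P lyase, read 2.46, 2.99 and 2.87 log2 in the KO livers, against 6.65, 6.90 and 6.71 log2 in the WT livers, on its brighter probe set. Alb, the gene of serum albumin, averaged 14.28 log2 in KO and 14.32 log2 in WT. Of 11 tested hepatocyte markers 5 fell in the KO livers and none rose, a count that was 1 to 3 with any 1 array left out, and all 8 tested neutrophil markers rose, with a median of 4.50 log2. S100a8, a neutrophil calcium-binding protein gene, rose by 5.17 log2. Control transcripts differed too: for Actb, Gapdh and Pcx, the excess of 3' over 5' signal was larger in KO by 0.45 to 1.01 log2. The spiked poly-A control RNAs were brighter in KO by 0.75 log2. For the lower markers in whole liver, fewer hepatocytes, less RNA per hepatocyte, array scale and RNA integrity cannot be told apart.

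Apoa4 stood out as the apolipoprotein gene that rose, 3.96-fold in the KO livers, while the other 9 differed by 1.33-fold or less. Apoc1 and Apoe fell slightly, by 0.30 and 0.25 on the log2 scale. The remaining 7 did not pass the test, and all but Apoc2 of these were lower in KO. A gene counts here as having risen or fallen where limma's Benjamini-Hochberg adjusted p over all 13370 genes tested was under 0.05, with each gene read by its brightest probe set. By that rule 1 of the 10 rose, where 10.5% of all genes did, and 2 fell, where 8.09% did. Either way, 3 of 10 were called, beside a background of 18.6%. All 10 were bright, with means over 10 log2, and 35% to 39% of the tested probe sets in the brightness classes from there up were called. The median difference of the 10, KO minus WT, was -0.20 log2, beside -0.05 log2 for all genes tested.

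**Figure D1:**
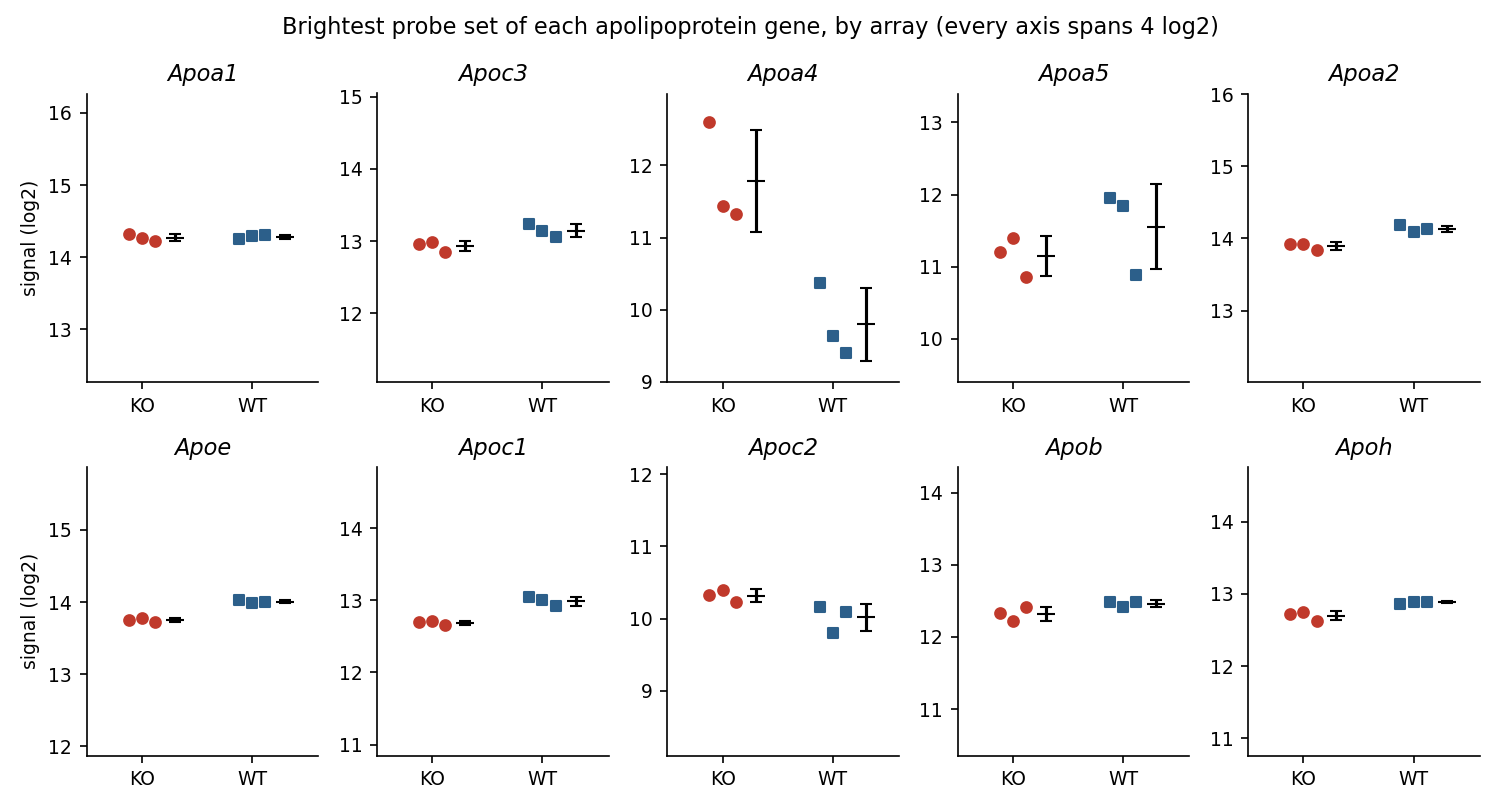
Deposited log2 signal of the brightest probe set of each of the 10 apolipoprotein genes in 3 KO livers (red circles, left) and 3 WT livers (blue squares, right), with mean and SD as black bars. Every vertical axis spans the same width in log2 units. The KO values of Apoa4, between 11.33 and 12.60 log2, lie above its WT values, while most other genes show only a small offset between tight groups.

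Apoa4 encodes a lipid-binding protein of chylomicrons and high-density lipoprotein that mice make in both intestine and liver. Its brightest probe set read 12.60, 11.43 and 11.33 log2 in the KO livers, against 10.37, 9.64 and 9.40 log2 in the WT livers. Every KO value lay above every WT value, and KO replicate 1 and WT replicate 1 were the highest of their groups. The difference was 1.99 log2 (SE 0.37, 95% interval 1.14 to 2.83, limma adjusted p = 0.00862). That is larger than the spread between animals, which was 0.70 log2 in KO and 0.51 log2 in WT (SD, n = 3 each). The difference exceeded that of 99.0% of all genes tested.

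The other Apoa4 probe set, whose name, unlike that of the first, carries no mark for probes shared with other transcripts, also rose. It read 12.06, 10.53 and 10.62 log2 in KO, against 8.85 ± 0.72 log2 in WT (SD, n = 3), a difference of 2.22 log2 (limma adjusted p over all probe sets = 0.0139). Apoa4 stayed called under all 15 alternative settings tried, with a difference of 1.24 to 2.27 log2 and an adjusted p of at most 0.0257. Intestinal RNA in these samples would also carry Apoa4. None of the 4 tested enterocyte markers was called as deposited. Fabp2 came nearest, at 8.69 log2 in KO and 8.23 log2 in WT with the groups apart (limma adjusted p = 0.0593), and 1 marker rose with hepatocyte marker centring and without WT replicate 2. As deposited, Cdx2, Alpi and Lgals4 differed by -0.10 to 0.12 log2. The log2 of the summed signal of all 4 tested markers, of which Fabp2 was the brightest, was 8.75 to 8.98 in KO and 8.35 to 8.70 in WT. Of the markers not tested, Vil1, Cdx1 and Lct lay below the filter. They reached at most 3.26, 3.46 and 2.76 log2 on any array, and the remaining listed marker had no probe set with 1 symbol. The part of intestinal RNA in the rise was not tested.

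The rise was not shared along the chromosome 9 cluster. Apoa1, which opens the cluster, read 14.32, 14.27 and 14.22 log2 in KO and 14.25, 14.29 and 14.30 log2 in WT. Within each array, Apoa4 minus Apoa1 was higher in every KO liver than in every WT liver, by a mean of 1.997 log2, a quantity that centring of arrays cannot move. Apoa1 itself was close to the highest signal recorded. Apoa4 minus Apoc3 was likewise higher, by 2.19 log2, and Apoa4 minus Apoa5 by 2.39 log2. Of the 5 nearest tested genes on each side of the cluster, 1 was called: Cadm1, an adhesion molecule, rose by 1.02 log2 (SE 0.18, limma adjusted p = 0.0067), a call lost with arrays centred on the poly-A controls (the poly-A scale). Sik3 and Zpr1, the nearest tested genes on either side, were at 0.06 and -0.28 log2 and did not pass.

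**Figure D2:**
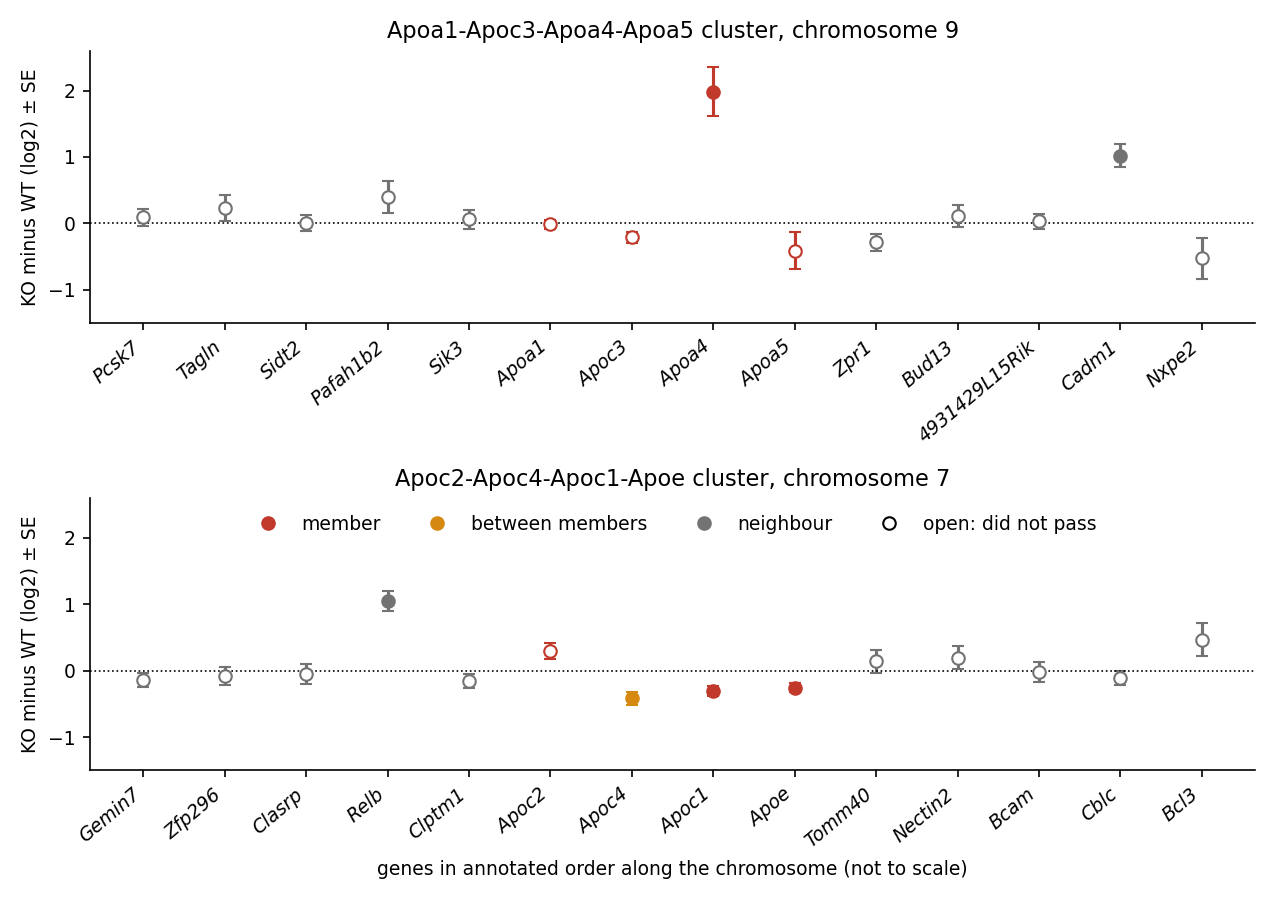
Difference between KO and WT (log2, with SE) for the genes of the chromosome 9 and chromosome 7 apolipoprotein clusters and the 5 nearest tested genes on each side, in annotated order and not to scale. Filled points passed the test. Apoa4 at 1.99 log2 stands between Apoc3 at -0.21 and Apoa5 at -0.41 log2, and Apoc4, Apoc1 and Apoe lie just below 0 together.

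The start regions of 3 genes of this cluster are shown because Apoa4 rose between neighbours that did not pass the test. The windows are RefSeq's on assembly GRCm38.p6, plus strand, from 250 bases before to 50 after the annotated start. Capitals mark a match to one of the motifs searched.
Apoa4, chr9:46240594-46240893: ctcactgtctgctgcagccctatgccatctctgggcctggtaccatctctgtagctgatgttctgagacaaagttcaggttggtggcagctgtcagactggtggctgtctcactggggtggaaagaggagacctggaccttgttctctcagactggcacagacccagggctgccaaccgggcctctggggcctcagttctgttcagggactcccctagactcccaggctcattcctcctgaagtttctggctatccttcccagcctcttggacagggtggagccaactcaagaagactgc
Apoa1, chr9:46228380-46228679: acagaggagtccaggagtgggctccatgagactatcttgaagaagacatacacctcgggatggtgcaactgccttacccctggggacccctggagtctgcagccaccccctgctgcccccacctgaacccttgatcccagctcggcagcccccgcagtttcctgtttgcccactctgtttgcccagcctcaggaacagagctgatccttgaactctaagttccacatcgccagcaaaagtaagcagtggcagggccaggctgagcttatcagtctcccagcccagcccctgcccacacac
Apoa5, chr9:46268358-46268657: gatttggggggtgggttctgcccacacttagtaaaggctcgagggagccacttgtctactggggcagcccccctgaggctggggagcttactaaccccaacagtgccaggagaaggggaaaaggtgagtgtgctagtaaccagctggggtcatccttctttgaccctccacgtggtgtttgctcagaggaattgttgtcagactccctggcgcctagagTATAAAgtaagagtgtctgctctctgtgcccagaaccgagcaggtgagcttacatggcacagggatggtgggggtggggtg

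The motifs were CAAAGGTCA and CAAAGTCCA (elements of HNF4 and other nuclear receptors), TTGCGCAA and TTNNGCAA (C/EBP), TTCNNNGAA (STAT), all on both strands, and TATAAA on the gene strand. TTNNGCAA includes every TTGCGCAA. RefSeq start windows were at hand for 8 of the 10 genes, some with several starts. The windows of Apoa4 and Apoa1 held none of the 6 motifs. That of Apoa5 held TATAAA at positions -31 to -26 relative to the start, a motif found in 8.32% of 32851 windows of this length. TATAAA was found in 5 of the 12 windows of these genes, for 4 of the 8 genes (Apoa2, Apoa5, Apob and Apoe). The Apoa5 windows overlap and share their match, and the TATAAA matches of Apoa2 and Apoe began at -212 and -96. TTNNGCAA, present in 10.8% of all windows, was found in 2 of the 12, for Apoa2 and Apob. A match describes letters only, and a missing match says only that these letters are not in this window.

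The genes of the main high-density lipoprotein proteins did not pass the test across genes. Apoa1 encodes the main protein of these particles, which also activates the cholesterol-esterifying enzyme LCAT. Its difference was -0.01 log2 (SE 0.07, 95% interval -0.17 to 0.15, limma adjusted p = 0.92), and the groups overlapped. The other 3 Apoa1 probe sets differed by -0.03 to 0.01 log2, and all overlapped. Apoa2, the gene of the second main protein of these particles, read 13.93, 13.92 and 13.84 log2 in KO, against 14.18, 14.09 and 14.13 log2 in WT. All KO values were lower, by a mean of 0.24 log2, just outside the threshold in the test across genes (limma adjusted p = 0.056) and just inside it across probe sets (limma adjusted p = 0.0494).

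Apoa1, Apoa2 and Apoe were close to the top of what the arrays recorded. The highest value of the whole table was 14.33 log2, and the brightest Apoa1 probe set averaged 14.28 log2 over the 6 arrays. Among the 40 tested probe sets with a mean of 13 log2 or more, 1 differed by over 1 log2 either way, and the median absolute difference was 0.20 log2. Among the 697 between 10 and 12 log2, Apoa4, Apoa5 and Apoc2 among them, 72 did, and the median was 0.34 log2. Far from the ceiling the median was again lower, 0.27 log2 at 6 to 8 log2 and 0.21 log2 under 6. The share called was 35% in the brightest class and 37.6% at 10 to 12 log2. A compression of the brightest signals was not tested.

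Apoc2, Apoc3 and Apoa5, which act on lipoprotein lipase, lay on either side of 0, and none passed the test. Apoc2 encodes the cofactor the lipase needs. It read 10.33, 10.40 and 10.22 log2 in KO, against 10.16, 9.80 and 10.09 log2 in WT. All KO values lay above all WT values, yet the difference of 0.30 log2 (SE 0.12) did not pass (limma adjusted p = 0.129). It passed when arrays were centred on hepatocyte markers (0.51 log2, adjusted p = 0.0295) and turned to -0.45 log2, without passing, when they were centred on the poly-A controls.

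Apoc3 encodes an inhibitor of the lipase and of remnant uptake. It read 12.96, 12.98 and 12.85 log2 in KO, against 13.24, 13.13 and 13.06 log2 in WT. The KO values were all lower, by 0.21 log2 on average (SE 0.09, limma adjusted p = 0.125). Apoa5, whose product strongly promotes triglyceride clearance, read 11.20, 11.39 and 10.85 log2 in KO, against 11.95, 11.84 and 10.89 log2 in WT. The groups overlapped through WT replicate 3, which lay within the KO values. The difference of -0.41 log2 (SE 0.28, 95% interval -1.05 to 0.23, limma adjusted p = 0.325) became -0.74 log2 without that array, and passed (adjusted p = 0.0237).

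In the chromosome 7 cluster, Apoc1 and Apoe fell, and so did Apoc4 between Apoc2 and Apoc1. Apoc1, whose product slows the removal of triglyceride-rich particles, read 12.69, 12.71 and 12.65 log2 in KO, against 13.04, 13.003 and 12.92 log2 in WT. The groups were apart and the difference was -0.30 log2 (SE 0.08, limma adjusted p = 0.033). Apoe read 13.75, 13.78 and 13.72 log2 in KO, against 14.02, 13.98 and 14.001 log2 in WT, groups that were apart with SDs of 0.03 log2 in KO and 0.02 log2 in WT. Its difference was -0.25 log2 (SE 0.07, limma adjusted p = 0.0376).

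Both calls sat near the threshold. Over the 15 alternative settings Apoc1 was called as fallen in 7 and Apoe in 4, and neither was called without KO replicate 1, 2 or 3 or WT replicate 1 or 2. Apoe also lost its call without WT replicate 3 (adjusted p = 0.0839). Apoc4, a minor apolipoprotein gene, fell by 0.41 log2 (SE 0.10, limma adjusted p = 0.0228), a call lost without KO replicate 2, WT replicate 1 or WT replicate 3 and with arrays centred on hepatocyte markers. Within each array, Apoc2 minus Apoe was higher in every KO liver than in every WT liver, by 0.55 log2 on average, and Apoc2 minus Apoc1 by 0.60 log2. Apoc1 minus Apoe differed by -0.05 log2, with overlapping groups.

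Macrophages also make apolipoprotein E and C apolipoproteins. The Kupffer cell and macrophage markers moved both ways in these livers, with 6 of 15 rising and 4 falling. Marco, a scavenger receptor, rose by 3.02 log2, Lyz2, the lysozyme gene, by 2.70 and Gpnmb, a gene of lipid-laden macrophages, by 3.76, while Vsig4, a complement receptor of resident Kupffer cells, fell by 2.30. The log2 of their summed signal was 12.59 to 12.81 in KO and 11.74 to 12.37 in WT. The part of these cells in the apolipoprotein values was not tested.

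Of the neighbours of this cluster, Relb, an NF-kappaB subunit, rose by 1.05 log2 (SE 0.15, limma adjusted p = 0.00334), a call lost on the poly-A scale. Its WT values of 3.35, 3.52 and 3.46 log2 lay below the filter level of 3.58 log2, so it was tested only through its KO values. It was too dim for the stricter filter. Clptm1 and Tomm40, the nearest neighbours, did not pass. Over all 5 loci, 5 of the 50 neighbours tested rose and 3 fell, with a median of 0.01 log2, while on the poly-A scale 1 rose and 37 fell, with a median of -0.74 log2. The furthest moved were Fcer1g, an Fc receptor chain of myeloid cells, at 1.95 log2, and Nr1i3, the xenobiotic receptor CAR, at -1.27 log2. Both lie beside Apoa2.

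Apob gave different answers on its probe sets. The brighter one read 12.33, 12.22 and 12.42 log2 in KO, against 12.49, 12.41 and 12.48 log2 in WT, overlapping groups with a difference of -0.14 log2 (SE 0.09, limma adjusted p = 0.288). The other read 11.43, 11.49 and 11.27 log2 in KO, against 12.02, 12.02 and 11.999 log2 in WT, and fell by 0.62 log2 (SE 0.09, limma adjusted p over all probe sets = 0.00365). The gap between them widened to 0.73 to 1.15 log2 within KO arrays, against 0.39 to 0.48 log2 within WT arrays. With both averaged, Apob was called as fallen, at -0.38 log2 (limma adjusted p = 0.0115). The position of either probe set in the transcript was not used here. The KO arrays were also those with the larger excess of 3' over 5' signal, by 1.01 log2 for Pcx, and the part of RNA integrity in this gap was not tested.

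Apoh encodes a phospholipid-binding plasma protein, beta-2-glycoprotein I, which travels in part with lipoproteins and is the main target of antiphospholipid antibodies. It read 12.72, 12.75 and 12.62 log2 in KO, against 12.86, 12.89 and 12.89 log2 in WT. The KO values were all lower, by 0.19 log2 on average (SE 0.08, limma adjusted p = 0.135). Its dimmer probe set was lower by 0.35 log2 and did not pass either (limma adjusted p over all probe sets = 0.161).

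**Figure D3:**
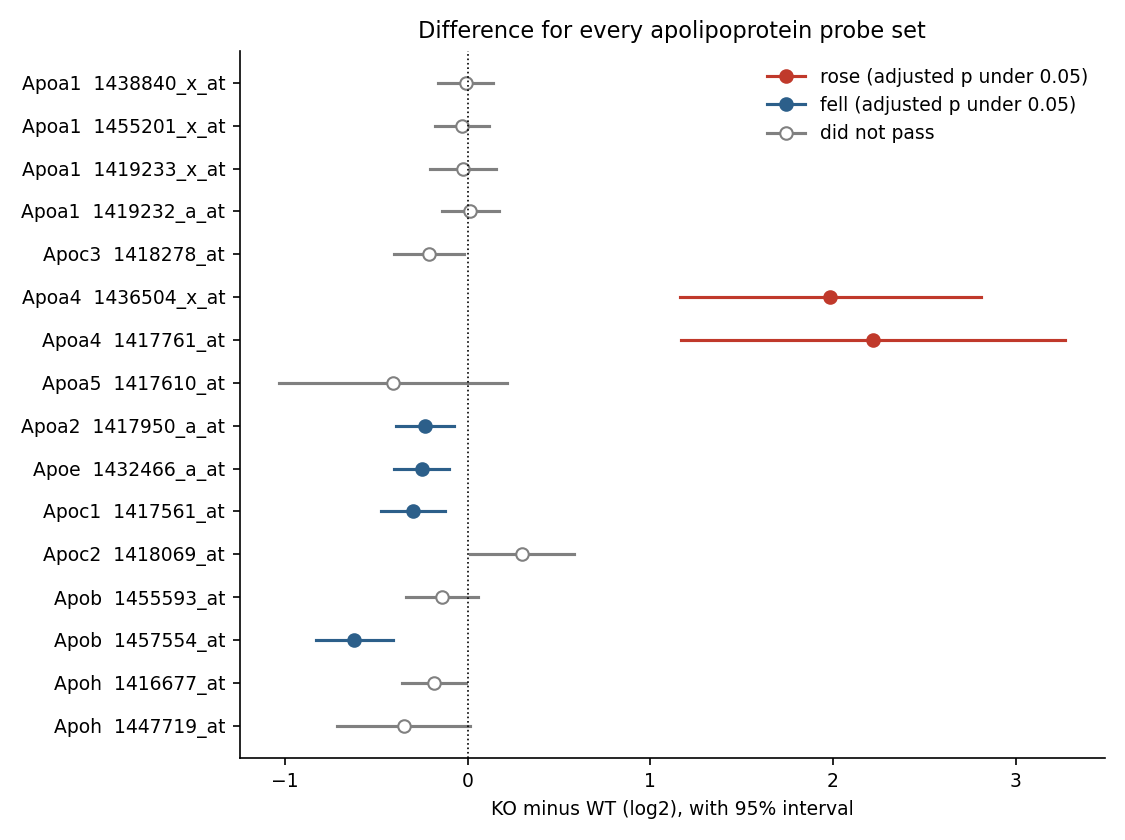
Difference between KO and WT (log2) with its 95% interval for all 16 apolipoprotein probe sets, from the fit across 27022 probe sets. Both Apoa4 probe sets lie near 2 log2, the 4 Apoa1 probe sets lie between -0.03 and 0.01 log2, and the Apob probe sets differ, at -0.14 and -0.62 log2.

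Over all 16 probe sets, 2 rose and 4 fell, where 10.1% and 7.82% of all probe sets did, 17.9% in all. KO and WT values did not overlap for 10 of the 16, 3 with KO above and 7 with KO below, where 40% of all probe sets were so, 18.8% above and 21.2% below. Probe sets of 1 gene read the same RNA and are not replicates. By gene, the genotypes were apart for 7 of the 10, 2 with KO above and 5 with KO below, where 40.8% of all genes tested were, 19% above and 21.8% below. The arrays of 1 genotype differed among themselves in a shared way. KO replicate 3 was the lowest of its group for 9 of the 10 genes, and WT replicate 1 the highest for 8.

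The offsets of most members were small, and some changed direction with the scale of the arrays. As deposited, 8 of the 10 were lower in KO. Centred on the 11 tested hepatocyte markers, which put the median of all genes at 0.16 log2, 5 were lower and 5 higher, the members' median was 0.01 log2, and Apoa4 and Apoc2 rose while none fell. Centred on the poly-A controls, which put the median of all genes at -0.80 log2, 8 fell and Apoa4 still rose, by 1.24 log2. The members' median lay 0.15 log2 below that of all genes, a gap that centring cannot change, since it moves every gene of an array alike. The hepatocyte markers themselves had a median of -0.20 log2 as deposited, and so had the 10 apolipoprotein genes. Among those that fell, Serpinc1 (antithrombin) fell by 0.43 log2, Asgr2 (an asialoglycoprotein receptor) by 0.54, Hpd (of tyrosine breakdown) by 0.58 and Ttr (transthyretin) by 0.29. The 6 markers that did not pass ran from -0.20 log2 for Fah to 0.39 log2 for Tat, with Alb at -0.05 log2.

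**Figure D4:**
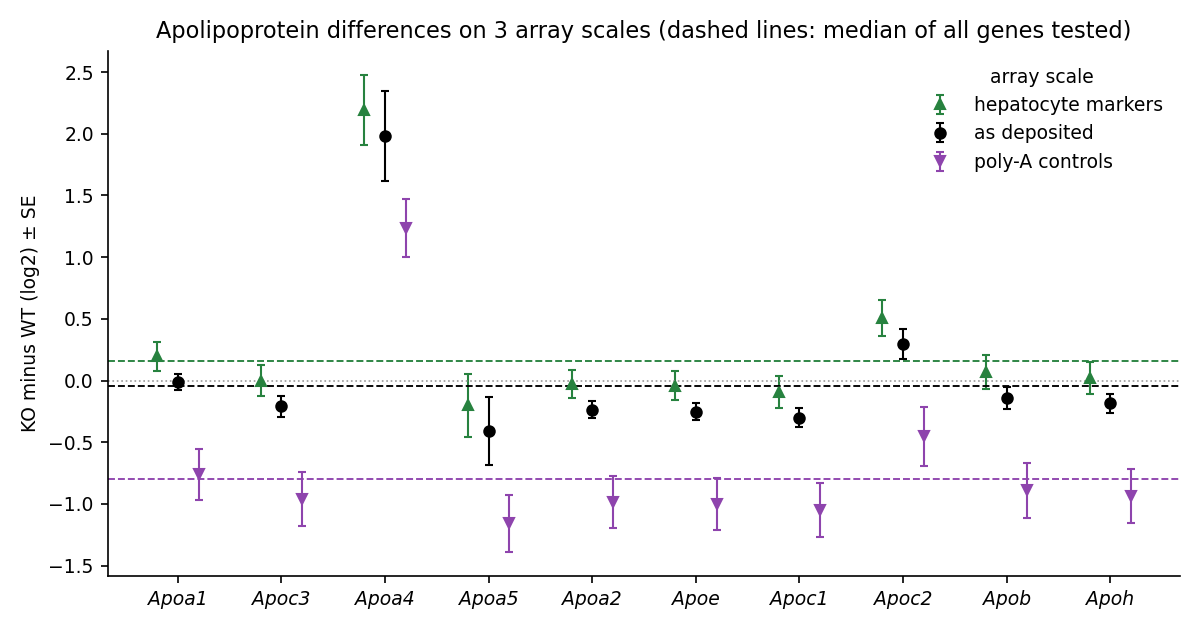
Difference between KO and WT (log2, with SE) of the 10 genes with arrays centred on hepatocyte markers (green), as deposited (black) and centred on poly-A controls (purple). Dashed lines give the median of all genes tested on each scale, and most members lie close to it while Apoa4 lies well above it on all 3.

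Relative to the median of the 10 within each array, a measure that centring cannot move, Apoa4 was higher in KO by 2.23 log2, Apoc2 by 0.54 and Apoa1 by 0.23, in each case with every KO array above every WT array. The other 7 moved by -0.17 to 0.10 log2 and their groups overlapped. On every array this median was the midpoint of Apoc1 and Apoh, so these genes could only mirror each other. As deposited they were lower in KO by 0.30 and 0.19 log2, so the reference itself was lower in KO. Apoa1, at -0.01 log2 as deposited, therefore lay higher on this measure. These values describe the members and carry no test.

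Of 8 other apolipoprotein genes, 3 rose and 1 fell, with a median of 0.23 log2 as deposited and -0.52 log2 on the poly-A scale. Saa4, a constitutive serum amyloid A carried on high-density lipoprotein, read 11.09, 11.71 and 11.94 log2 in KO, against 10.45, 10.10 and 10.32 log2 in WT. It rose by 1.29 log2 (SE 0.21, limma adjusted p = 0.00524), though its other probe set was higher by 0.29 log2 with overlapping groups, and the call was lost on their mean. Clu, the gene of clusterin or apolipoprotein J, rose by 0.65 log2 (SE 0.12, limma adjusted p = 0.00952) and did so on all 4 of its probe sets. Apobr, the apolipoprotein B receptor of myeloid cells, rose by 0.65 log2 (SE 0.13), a call lost without KO replicate 1 or 2. On the poly-A scale Clu and Apobr were at -0.10 log2 each.

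Among genes that edit Apob transcripts or carry its particles out of the cell, 1 of 14 rose and 3 fell, with a median of -0.16 log2. On the poly-A scale 1 rose and 12 fell, with a median of -0.91 log2. Apobec1 encodes the deaminase that edits the Apob transcript so that a shorter protein is made. It read 7.24, 7.70 and 7.18 log2 in KO, against 5.96, 6.22 and 5.74 log2 in WT, and rose 2.64-fold (1.40 log2, SE 0.18, limma adjusted p = 0.00199). A1cf, whose product guides the deaminase to its site, moved the other way, at 5.35, 5.41 and 5.18 log2 in KO against 7.25, 7.04 and 6.56 log2 in WT. It was 3.10-fold lower (-1.63 log2, SE 0.18, limma adjusted p = 0.00111). The arrays do not read edited and unedited Apob transcripts apart.

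A pair of genes for export from the endoplasmic reticulum fell as well: Mia2, which helps load large cargo, by 1.36 log2 (SE 0.17), and Sar1b, the coat GTPase for lipoprotein export, by 0.73 log2 (SE 0.10, limma adjusted p = 0.00279). The calls of Apobec1, A1cf and Sar1b and their directions held under all 15 alternative settings. That of Mia2 held under the 14 in which it was tested, and it was too dim for the stricter filter. Mttp, the lipid transfer protein that fills apolipoprotein B, was at -0.15 log2 (SE 0.17, limma adjusted p = 0.562), a gene named after its value was seen.

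Of receptor and clearance genes, 3 of 10 tested rose and none fell, with a median of 0.17 log2 as deposited and -0.58 log2 on the poly-A scale, where none rose and 6 fell. Mylip, the ligase that degrades LDL receptors, rose by 0.84 log2 (SE 0.11, limma adjusted p = 0.00173), the sorting receptor gene Sorl1 by 1.27 (SE 0.32) and Stab2, a scavenger receptor of liver sinusoids, by 0.45 (SE 0.11). Mylip, Sorl1 and Stab2 lost their calls on the poly-A scale. Sorl1 also lost its call without any 1 of the 3 KO replicates, and Stab2 without KO replicate 1 or 2 or WT replicate 1 or 2. Lrp1, a remnant receptor that binds apolipoprotein E, was 0.48 log2 higher on its brightest probe set and did not pass (limma adjusted p = 0.0858). A dimmer probe set rose by 1.29 log2, with the groups apart (limma adjusted p over all probe sets = 0.0378).

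Of lipase and remodelling genes, 3 of 15 rose and 3 fell, with a median of -0.15 log2. The split moved with the scale, to 1 rising and 10 falling on the poly-A scale (median -0.90 log2) and to 5 rising and 2 falling with hepatocyte marker centring. Without WT replicate 3, and likewise with array weights, 5 rose. Pon1, an esterase that rides on high-density lipoprotein, fell by 0.90 log2 (SE 0.08, limma adjusted p = 0.000347), with means of 12.24 ± 0.02 log2 in KO and 13.14 ± 0.07 log2 in WT (SD, n = 3 each). Lipg, the endothelial lipase that acts on the same particles, fell by 1.27 log2 (SE 0.16) on its brightest probe set. Its dimmer probe sets were lower by 0.24 and 0.73 log2 and did not pass. Abcg1, a cholesterol exporter, rose by 1.27 log2 (SE 0.15, limma adjusted p = 0.0015). Abca1, which loads cholesterol onto apolipoprotein A-I, rose by 0.64 log2 on its brightest probe set (SE 0.12), but 2 dimmer probe sets were lower by 0.42 and 0.40 log2 with overlapping groups, and on the poly-A scale it was at -0.11 log2.

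Transcription factors that act on apolipoprotein genes moved both ways as deposited, with 3 of 22 rising, 3 falling and a median of -0.25 log2. On the poly-A scale 1 rose and 17 fell, with a median of -0.999 log2. Without KO replicate 1, and likewise without KO replicate 2, 1 rose. Nr1d1, the clock repressor REV-ERB alpha that in mice represses Apoc3, fell by 1.32 log2 (SE 0.24, limma adjusted p = 0.00835), and Mlxipl, the sugar-responsive factor ChREBP, by 1.28 log2 (SE 0.24). Cebpb rose by 1.12 log2 (SE 0.21, limma adjusted p = 0.00855) and Foxo1, the insulin-restrained factor that activates Apoc3, by 1.20 log2 (SE 0.26). Foxo1 lost its call on the mean of its probe sets, without KO replicate 1 or 2, and on the poly-A scale, where Cebpb lost its call too.

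Chosen after their values were seen, 3 further factors are known to act on Apoa4 in mice or in liver cells. Creb3l3, the liver factor CREB-H, was lower by 0.35 log2 without passing (SE 0.13, limma adjusted p = 0.1), and Hnf4a was at -0.07 log2 (SE 0.20, limma adjusted p = 0.82). Ppargc1a, the coactivator PGC-1 alpha, rose by 1.66 log2 (SE 0.46, limma adjusted p = 0.0418), at 8.35, 7.57 and 6.56 log2 in KO against 6.08, 5.11 and 6.32 log2 in WT. All 5 of its probe sets rose, by 1.24 to 2.07 log2. The call by gene was lost without KO replicate 1 or 2 or WT replicate 1 or 2. KO replicate 1 was the highest array for Ppargc1a and for Apoa4. Among the WT arrays, replicate 3 was the highest for Ppargc1a, at 6.32 log2, and the lowest for Apoa4, at 9.40 log2. The part of Ppargc1a in the Apoa4 values was not tested.

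**Figure D5:**
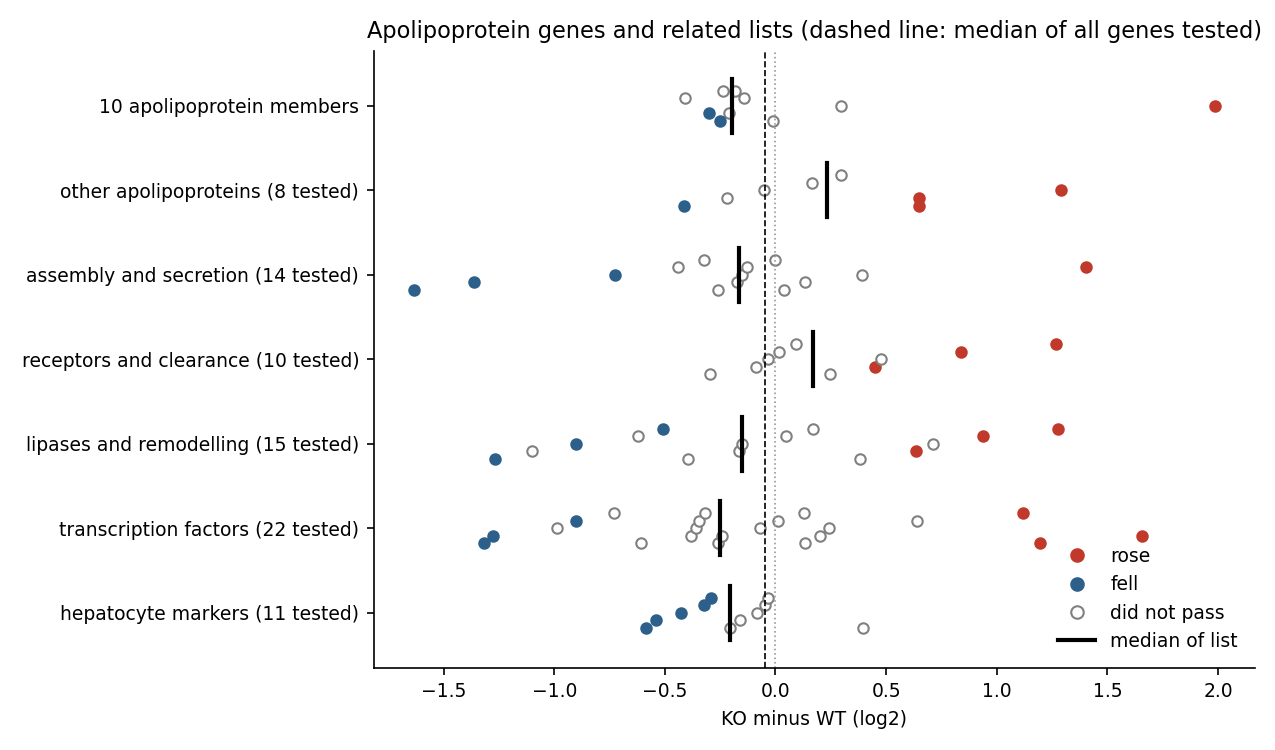
Difference between KO and WT (log2) for each tested gene of the apolipoprotein group, 5 related lists and the hepatocyte markers, with list medians as black bars and the median of all genes as a dashed line. Most apolipoprotein genes lie within 0.5 log2 of 0, as do the hepatocyte markers apart from Asgr2 and Hpd, while the related lists spread to either side.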

How the data were processed

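The authors deposited log2 values, 1 per probe set and array, and no other log base would fit their range on a scanned array. MAS5 is named, without version or role, per the submitters' processing notes. How background, scale and probe summaries were handled is not stated in the labels, so whether these values are MAS5 signals or a summary made across arrays is unsettled, which bears on their spread. Probe sets were named from the platform annotation, and 34754 of the 34958 with exactly 1 symbol were matched by gene identifier to RefSeq's annotation of GRCm38.p6, whose symbol was used. The filter dropped 64 control probe sets and any with a mean below 3.58 log2, the 40th percentile of the rest. This left 27022 probe sets and 13370 genes, each gene read by its brightest probe set.

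The comparison used limma 3.58.1 under R 4.3.3 (lmFit, eBayes with an intensity trend, two-sided, no covariates), with Benjamini-Hochberg adjustment over all genes or all probe sets. Control transcripts were compared with an exact permutation test. Folds are powers of 2 of the KO minus WT difference. Replicates are separate animals, numbered only to name them. Genes named are Sgpl1, the 10 members and, per list, the 4 genes with the lowest adjusted p. Others, named after their values were seen, are Alb, Fah, Tat, Clptm1 and Tomm40, Sik3, Zpr1, Mttp, Creb3l3, Hnf4a, Ppargc1a and those of the closing part. The untested enterocyte markers Vil1, Cdx1 and Lct were also named after their values were seen. The members and lists were chosen with earlier results of these data known. Some listed genes were not analysed here for want of a probe set with 1 symbol, and others because all such probe sets lay below the filter. The fit was tested on simulated data. The 15 alternatives were no filter, a stricter filter (60th percentile), quantile normalization, centring on array medians, poly-A controls or hepatocyte markers, no intensity trend, array weights, probe sets averaged per gene, and each array left out.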

Additional observations from a re-analysis of the deposited data

Results flagged for a closer look

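Control probe sets, which are not among the genes tested but include the reference of the poly-A scale, differed with genotype. The excess of 3' over 5' signal was larger in KO for Actb by 0.45 log2, at 1.33 ± 0.18 log2 in KO and 0.89 ± 0.08 log2 in WT (SD, n = 3 each; two-sided exact permutation p = 0.1, the lowest p possible with 3 arrays a group). For Gapdh it was larger by 0.47 log2 and for Pcx by 1.01 log2, each again with every KO array above every WT array. The 24 poly-A control probe sets averaged 8.78 ± 0.28 log2 in KO and 8.03 ± 0.05 log2 in WT, a difference of 0.75 log2, more than the size of the difference of any of the 10 apolipoprotein genes except Apoa4.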

How the results depend on the processing

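Of Apoa4, Apoc1 and Apoe, the called members, Apoa4 alone kept its call under all 15 alternative settings. Of the 150 member values under them, 111 kept direction and side of the threshold. The count of members that rose was 2 with arrays centred on hepatocyte markers, and 1 under the other settings. The count that fell, 2 as reported, was 1 without a filter, with quantile normalization and with median centring, 0 with hepatocyte marker centring and without an intensity trend, 4 with probe sets averaged per gene and 8 with poly-A centring. Member probe sets that fell, 4 as reported, numbered 1 without a filter or an intensity trend, 2 with median centring, 13 with poly-A centring and 0 with hepatocyte marker centring. Leaving out 1 array in turn gave 0 to 2 members that fell and 1 to 3 probe sets, and over all genes 792 to 1437 that rose and 526 to 944 that fell. Over all genes, poly-A centring gave 377 that rose and 10120 that fell, and hepatocyte marker centring 2165 and 362. Apoa1, near 0 as reported, turned to 0.0063 with quantile normalization, 0.0215 with median centring and 0.198 with hepatocyte marker centring, and with 1 array left out it ran from -0.0350 to 0.0134, with 8.14e-05 without WT replicate 3. With hepatocyte marker centring Apob turned to 0.0680 and Apoh to 0.0241 log2, and with poly-A centring Apoc2 turned to -0.45. Counts per list stayed within 1.5 times in 258 of 300 cases. The centrings shift every gene by construction and also changed spreads, and the cause of the moves was not tested. No paired analysis was possible because the labels give the animals no shared replicate numbers. Apoa1, Apoa2 and Apoe read near the top of the range, and whether such signals were compressed was not tested.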

Other observations

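Angptl8, an inhibitor of lipoprotein lipase that the liver makes after feeding, was spread widely within each genotype. It read 7.18, 6.48 and 9.25 log2 in KO and 6.74, 9.12 and 10.35 log2 in WT, a difference of -1.10 log2 (SE 0.96) that did not pass. Angptl4, another inhibitor of that lipase, rose by 0.94 log2 (SE 0.19, limma adjusted p = 0.0129), and the gene of the lipase itself, Lpl, averaged 0.71 log2 higher in KO, with the groups apart, but did not pass (SE 0.24, limma adjusted p = 0.0714). Lmf1, which matures the lipase, fell by 0.51 log2 (SE 0.13). Angptl4 lost its call without KO replicate 1 or 2 and on the poly-A scale, and Lmf1 with hepatocyte marker centring and without any 1 array other than WT replicate 2. All 4 were chosen with their values known.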
